A study of Macaca fascicularis with 4 samples.

Results

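Ribosomal proteins build the 2 kinds of ribosome of an animal cell, and all of them are encoded in the nucleus. Here they were the gene names that begin RPL or RPS (cytosolic ribosome, large and small subunit) or MRPL or MRPS (mitochondrial ribosome) followed by a number, with at most a letter and a further number after it. Of 13982 names with counts, 108 met that rule, 46 of them cytosolic and 62 mitochondrial. They were followed in 4 full-length RNA libraries of the cynomolgus monkey (Macaca fascicularis) from liver, muscle, oWAT and sWAT, the last 2 abbreviations being left unexplained in the labels (WAT usually stands for white adipose tissue). For each tissue the RNA of 5 monkeys was combined into a single library, which was read as whole cDNA molecules on a PacBio Sequel II instrument. The labels name no treatment, sex or age. Where a sentence gives a value for each library without naming them, the order is liver, muscle, oWAT, sWAT. With 1 pooled library per tissue the spread between animals is not known, no p-value is given, and every interval below is a 95% interval of counting error only.

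The cytosolic ribosome translates the mRNAs of nuclear genes, and its protein genes are known as abundantly expressed in nearly every cell. Their mRNAs are short, begin with a tract of pyrimidines and have many processed pseudogenes in primate genomes. The mitochondrial ribosome translates the few proteins encoded in mitochondrial DNA, all of them subunits of the respiratory chain and ATP synthase, and its proteins are made in the cytosol and imported. No source used here says how reads shared by a gene and its copies were assigned, so the split between close copies is uncertain. In pooled tissue, fewer cells of a type and less RNA per cell cannot be told apart. No sequence of these genes was among the files used, and none is printed.

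Totals over named genes ranged from 383896 counts in sWAT to 439872 in muscle, so that 1 count was worth 2.27 to 2.60 CPM (counts scaled to a library total of 1000000). The libraries carried the marker genes of their labels. Hepatocyte markers summed to 73689 counts in liver and to between 1 and 4 elsewhere, and fibre markers to 57175 in muscle and 70 to 74 elsewhere. Adipocyte markers reached 7942 counts in oWAT and 9117 in sWAT, while liver had 227 and muscle 785. Mesothelial markers (all 6 with counts) summed to 1548 counts in oWAT and 10 in liver, with all 6 at 0 in muscle and sWAT. Fibroblast markers to 171, 9343, 9553 and 31564 counts. Macrophage markers summed to between 178 in muscle and 654 in oWAT, and endothelial markers to between 128 in liver and 1504 in sWAT. Lymphocyte and plasma cell markers (7 of 8 with counts) lay between 11 in muscle and 99 in oWAT, and erythroid markers (3 of 5) between 3 in liver and 22 in sWAT. Their part in the results below was not tested.

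The counts behind both sets were small. The 46 cytosolic members summed to 191, 224, 305 and 285 counts. The 62 mitochondrial members summed to 365 counts in liver, 363 in sWAT and 571 in muscle, with oWAT between them. Thus, in every library the mitochondrial sum exceeded the cytosolic sum. Over the 4 libraries the cytosolic total was 1005 counts, against 1254 for the single gene EEF1A1, which encodes the factor that carries aminoacyl-tRNA to the cytosolic ribosome. As levels, the cytosolic sum stood at 436 CPM in liver (377 to 503) and 509 in muscle (445 to 580), and at 769 in oWAT (685 to 860) against 742 in sWAT (659 to 834). The mitochondrial sum was highest in muscle, at 1298 CPM (1194 to 1409), and in oWAT, at 1258 (1150 to 1373). It was lower in sWAT, at 946 (851 to 1048), and in liver, at 834 (751 to 924).

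**Figure D1:**
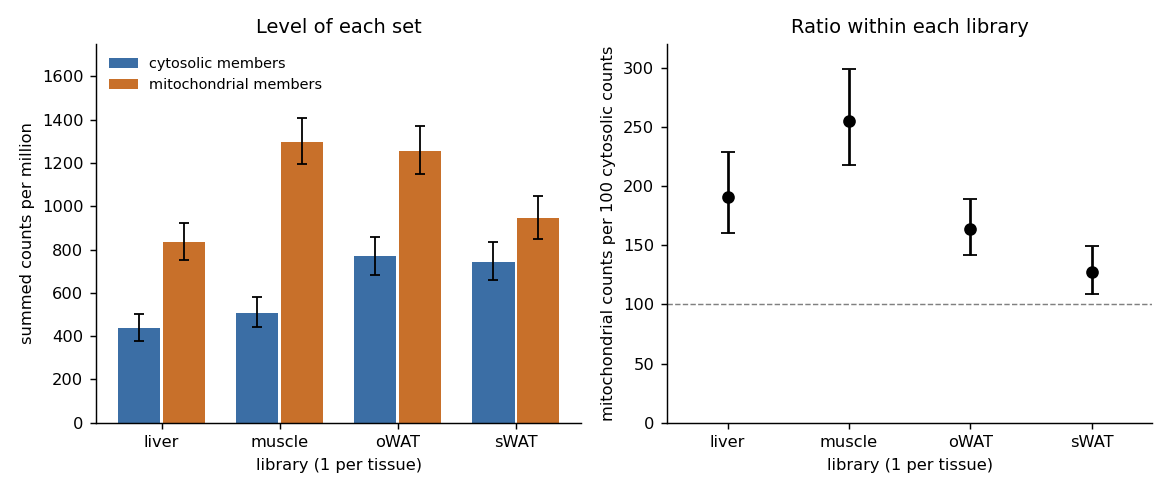
Summed level of each set in CPM (left; bars start at 0) and mitochondrial counts per 100 cytosolic counts (right; dashed line at 100) in each of the 4 libraries, with exact 95% intervals of counting error. The ratio is above 100 in all 4 libraries, from 127 in sWAT to 255 in muscle.

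The balance of the sets differed between tissues. For every 100 cytosolic counts there were 255 mitochondrial counts in muscle (218 to 298.9), 191 in liver (160 to 229), 164 in oWAT (142 to 189) and 127 in sWAT (109 to 149.3). This ratio lies within a library and does not depend on how libraries are scaled. Its odds ratio for liver over muscle was 0.75 (exact conditional interval 0.590 to 0.954), for muscle over oWAT 1.56 (1.26 to 1.93) and for muscle over sWAT 2.0004 (1.60 to 2.51). Liver exceeded sWAT (1.4999, 1.18 to 1.91), and so did oWAT (1.28, 1.03 to 1.59). Liver and oWAT, neighbours in the order, were not separated (1.17, 0.926 to 1.47).

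Without RPL3L, a cytosolic member with counts in muscle alone, the muscle value rose to 302 and the order stayed the same. That order nevertheless rested on few genes. Without the 3 most counted members of each set the values were 289, 321, 324 and 215, so that oWAT no longer lay below liver and muscle. With the ribosome genes whose names fall outside the rule added to each set, every value stayed within its interval.

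The fold between libraries depended on the scaling. By library total, the median log2 ratio of all genes with at least 10 counts over the pair was -0.93 for liver over oWAT, -0.72 for liver over sWAT, -0.50 for liver over muscle, -0.54 for muscle over oWAT, -0.37 for muscle over sWAT and 0.16 for oWAT over sWAT. Factors from the trimmed mean of M-values (TMM) brought these to between -0.056 and 0.14. By library total the cytosolic sum was higher in oWAT than in liver (1.76-fold, 1.46 to 2.12) and in sWAT than in liver (1.70-fold, 1.41 to 2.05), and both directions turned over with TMM and with DESeq2 size factors. It was likewise higher in oWAT than in muscle (1.51-fold, 1.27 to 1.80) and in sWAT than in muscle (1.46-fold, 1.22 to 1.74), where TMM left the 4 libraries at 665, 571, 583 and 625 scaled CPM. Liver against muscle (0.857, 0.703 to 1.04) and oWAT against sWAT (1.04, 0.878 to 1.22) were not separated for cytosolic members.

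The mitochondrial sum was highest in muscle under each of the 4 scalings, though by library total it was not separated from oWAT (1.03-fold, 0.914 to 1.17). It was higher in muscle than in sWAT (1.37-fold, 1.20 to 1.57; 1.83 with TMM) and than in liver (1.56-fold, 1.36 to 1.78), where liver over muscle was 0.643 by library total and 0.873 with TMM. It was also higher in oWAT than in sWAT (1.33-fold, 1.16 to 1.53). Liver over oWAT, 0.663 (0.578 to 0.761) by library total, turned to 1.33 with TMM. Liver over sWAT was 0.882 (0.761 to 1.02) by library total and 1.60 with TMM.

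**Figure D2:**
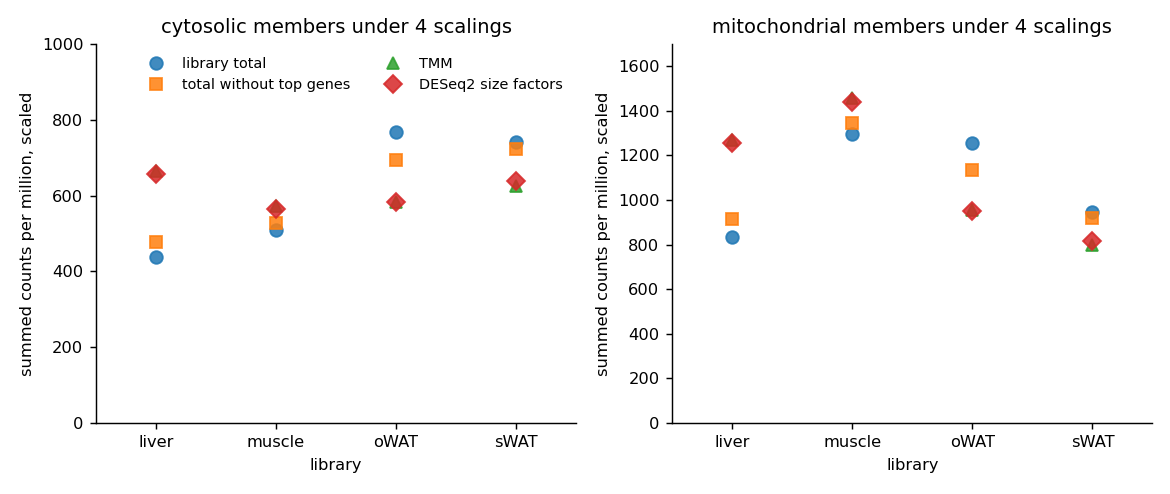
Summed level of cytosolic (left) and mitochondrial (right) members per library under 4 scalings, in CPM brought to the mean library size; both axes start at 0. Liver moves from the lowest cytosolic level by library total (436) to the highest with TMM (665), while muscle has the highest mitochondrial level under all 4.

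Member by member, the medians lay beside those of all genes as follows. The mitochondrial median log2 ratio was -0.82 for liver over muscle (28 members with at least 10 counts over the pair), -0.56 for liver over oWAT (28), -0.19 for liver over sWAT (25), 0.18 for muscle over oWAT (28), 0.13 for muscle over sWAT (28) and 0.42 for oWAT over sWAT (29). Its order-statistic interval lay above the median of all genes for liver over oWAT (-0.930 to -0.252, barely), liver over sWAT (-0.613 to 0.163), muscle over oWAT (-0.280 to 0.303) and muscle over sWAT (-0.030 to 0.721). For liver over muscle (-1.06 to -0.334) and oWAT over sWAT (0.055 to 0.569) it contained that median. The cytosolic median rested on 8 to 12 members, with values of 0.018, -0.71, -0.87, -0.65, -0.46 and -0.15 for the same pairs, and each of its intervals contained the median of all genes. For liver over muscle and for oWAT over sWAT it differed in sign from the fold of the sums. Only members with enough counts enter these medians, so they do not describe the rest.

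A few large-subunit proteins carried most of the cytosolic counts. RPL3, RPL4 and RPL15 held 541 of the 1005 counts, or 53.8% (50.7 to 56.9), and large-subunit members as a whole held 86.8% (84.5 to 88.8). RPL3, which lies close to the peptidyl transferase centre of the large subunit, had 57, 33, 94 and 87 counts. RPL4, which lines the tunnel through which the new peptide leaves, had 21, 32, 51 and 34 counts. RPL15, a further large-subunit protein, had 15, 38, 46 and 33 counts. RPL3 was thus lowest in muscle, whereas RPL4 and RPL15 were lowest in liver.

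The next large-subunit members were far lower. RPL9 had 8, 19, 9 and 20 counts. RPL5, which with a small ribosomal RNA forms a particle that also binds MDM2, had 11, 7, 15 and 18. RPL22 had 4, 10, 14 and 7, and RPL13 had 8, 4, 6 and 7. RPL15 over liver was 3.38-fold in oWAT (1.85 to 6.52), 2.52-fold in muscle (1.35 to 4.93) and 2.51-fold in sWAT (1.32 to 4.97). With TMM these folds were 1.68 (0.924 to 3.25), 1.85 (0.997 to 3.63) and 1.39 (0.732 to 2.75), and all 3 intervals include 1.

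Among the 19 small-subunit members of the cytosolic ribosome none exceeded 8 counts in a library. RPS6, the substrate of the S6 kinases, had 4, 4, 5 and 6 counts. RPS24 had 8, 2, 3 and 0, and RPS20 had 3, 2, 6 and 3. Small-subunit members took 19.4% of the cytosolic counts in liver (14.02 to 25.7), the highest share, and 9.38% in muscle (5.90 to 13.97), the lowest. The WAT libraries lay between, at 12.8% in oWAT (9.25 to 17.1) and 12.6% in sWAT (9.01 to 17.1). The intervals of liver and muscle were barely apart. The muscle total includes 35 counts of RPL3L, a large-subunit member, which lower the small-subunit share there.

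**Figure D3:**
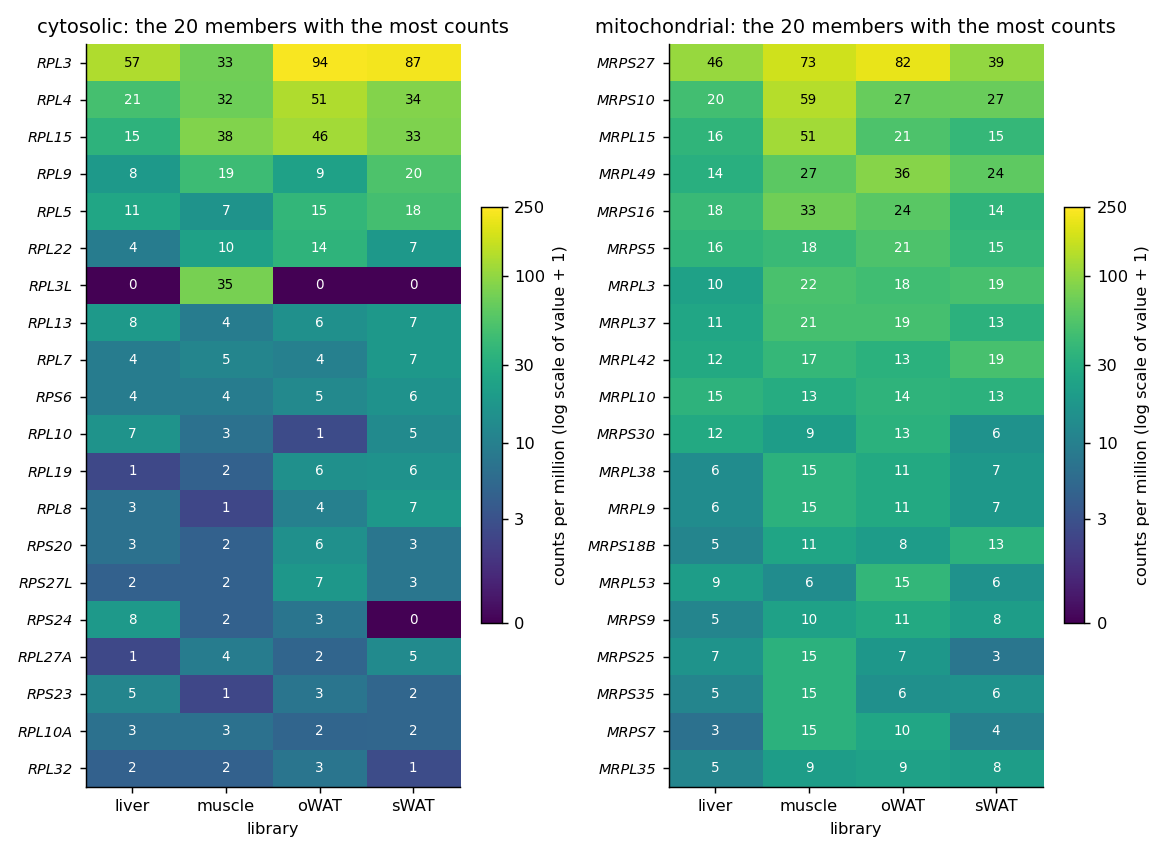
Counts (printed in each cell) of the 20 most counted members of each set in the 4 libraries; colour gives CPM on a log scale after adding 1. RPL3L is at 35 counts in muscle and 0 in the other libraries, and below RPL15 the cytosolic members fall to 20 counts or fewer in each library except for RPL3L in muscle.

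The clearest tissue difference among all members concerned RPL3 and its paralog RPL3L, a protein known from striated muscle that takes the place of RPL3 in the ribosome. RPL3L had 35 counts in muscle (79.6 CPM, 55.4 to 111) and 0 in liver, oWAT and sWAT. With a floor of 3 counts per library standing in for 0, the muscle level was 11.6-fold higher than that of liver. Against the floor of oWAT it was 10.5-fold higher, and against that of sWAT 10.2-fold. With counting error, the exact lower bound of the fold was 8.95 over liver, 8.12 over oWAT and 7.85 over sWAT. Of the summed counts of RPL3 and RPL3L in muscle, RPL3L made up 51.5% (39.0 to 63.8). By the exact upper limit, 0 of 57 pair counts in liver allow a share of up to 6.27%, 0 of 94 in oWAT up to 3.85%, and 0 of 87 in sWAT up to 4.15%.

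RPL3 itself was lower in muscle than in oWAT (3.16-fold higher in oWAT, 2.10 to 4.85) and than in sWAT (3.02-fold, 2.002 to 4.66), and 1.74-fold higher in liver than in muscle (1.11 to 2.75). With TMM the same folds over muscle were 2.14 (1.42 to 3.28) in oWAT, 2.27 (1.503 to 3.496) in sWAT and 2.36 (1.51 to 3.74) in liver, so RPL3 stayed lowest in muscle. Summed over both genes, muscle had 155 CPM against 130 in liver, 237 in oWAT and 227 in sWAT. The sum in liver over muscle was 0.843 (0.582 to 1.22), which did not separate these libraries. Because the paralogs are similar in sequence, reads could have been exchanged between them, which was not tested. RPL3L had 0 counts in the 3 libraries with 57 to 94 RPL3 counts.

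The elongation factor EEF1A, from the list of cytosolic translation factors, had a pair of genes with the same kind of pattern. EEF1A1 had 367, 138, 384 and 365 counts. Its paralog EEF1A2, known from muscle and neurons, had 41 counts in muscle and 0 in the other libraries. Against the same floor the muscle level of EEF1A2 was 13.6-fold higher over liver, 12.3-fold over oWAT and 11.9-fold over sWAT, counting error left out. EEF1A1 was 2.67-fold higher in liver than in muscle (2.19 to 3.28), 3.08-fold in oWAT (2.53 to 3.77) and 3.03-fold in sWAT (2.48 to 3.71). With TMM these folds were 3.63 (2.98 to 4.45), 2.09 (1.71 to 2.55) and 2.28 (1.87 to 2.79). EEF1A2 made up 22.9% of the EEF1A counts in muscle (17.0 to 29.8), a lower share than that of RPL3L with intervals that did not overlap.

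**Figure D4:**
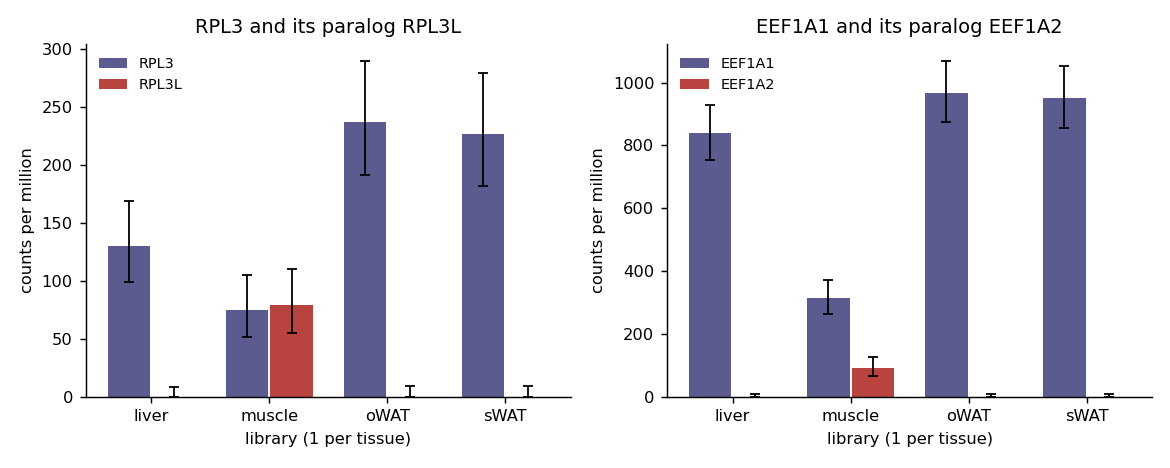
CPM of RPL3 and RPL3L (left) and of EEF1A1 and EEF1A2 (right) in the 4 libraries, with exact 95% intervals of counting error; bars start at 0. RPL3L (79.6) and EEF1A2 (93.2) have counts in muscle alone, where RPL3 (75.0) and EEF1A1 (314) are at their lowest.

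A call of higher needed 10 or more counts on the higher side and a fold by library total whose lower bound exceeded 2. Of cytosolic members, RPL3L was called in muscle over liver, oWAT and sWAT, and RPL3 was called in oWAT and in sWAT over muscle. The RPL3L calls held under all 4 scalings, while both RPL3 calls were lost under each of the 3 other scalings. Few members could have been called, since only 4 cytosolic members reached 10 counts in liver, 6 in muscle and 5 each in oWAT and sWAT. The other pairs and directions had 0 cytosolic calls, and mitochondrial members had 0 in all of them, with 13, 17, 16 and 11 reaching 10 counts.

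The same rule over all genes called 17.7% of those with at least 10 liver counts as higher in liver than in muscle, 12.9% over oWAT and 13.6% over sWAT. It called 23% as higher in muscle than in liver, 8.3% over oWAT and 9.23% over sWAT. It called 25.8% as higher in oWAT than in liver, 11.4% over muscle and 1.43% over sWAT, and for sWAT 24.2% over liver, 11.2% over muscle and 0.767% over oWAT. Against these shares, 0 of 17 mitochondrial members in muscle over liver and 0 of 16 in oWAT over liver lay below the background. The low counts of the members widen their intervals and make a call less likely than for a more counted gene.

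Other members whose names mark a paralog or variant were sparse. RPS27L, a paralog of RPS27 known as a p53 target, had 2, 2, 7 and 3 counts. RPS4X had 0, 2, 1 and 2 counts, RPL26L1 1, 0, 1 and 1, and RPL22L1 a single count, in oWAT. At 0 to 7 counts no difference between libraries was detectable for these 4 genes.

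Counts of the mitochondrial ribosome were spread over more members and over both subunits. MRPS27, MRPS10 and MRPL15 held 476 of 1798 counts, or 26.5% (24.4 to 28.6), and large-subunit members held 50.4% (48.1 to 52.8). Those 3 genes made up 32.0% of the set in muscle (28.2 to 36.05) against 22.5% in liver (18.3 to 27.1), 26.1% in oWAT (22.3 to 30.1) and 22.3% in sWAT (18.1 to 27.0). Among the 62 members 46 had counts in all 4 libraries, against 20 of 46 cytosolic members. The median member had 17 counts over the 4 libraries, against 6.5 for cytosolic members.

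In the mitochondrial small subunit, MRPS27, a protein with pentatricopeptide repeats that the bacterial ribosome lacks, had 46, 73, 82 and 39 counts. It was 2.03-fold higher in oWAT than in sWAT (1.37 to 3.06; 1.83, 1.24 to 2.76, with TMM). Over liver its level in oWAT was 1.97-fold by library total (1.35 to 2.89) and 0.979-fold with TMM (0.674 to 1.44). MRPS10, which has a bacterial counterpart, had 20, 59, 27 and 27 counts and was highest in muscle under each scaling, by 2.93-fold over liver (1.74 to 5.15), 1.97-fold over oWAT (1.23 to 3.23) and 1.91-fold over sWAT (1.19 to 3.13) by library total. MRPS16 had 18, 33, 24 and 14 counts, and MRPS5 had 16, 18, 21 and 15. MRPS7, a member chosen after its values were seen, had 3, 15, 10 and 4 counts and was 4.97-fold higher in muscle than in liver (1.41 to 26.8).

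In the mitochondrial large subunit, MRPL15 had 16, 51, 21 and 15 counts, and was highest in muscle under each scaling. It stood 3.17-fold over liver (1.78 to 5.96), 2.19-fold over oWAT (1.29 to 3.83) and 2.97-fold over sWAT (1.64 to 5.68). With TMM the fold over sWAT was 3.95 (2.19 to 7.57), which added a call. MRPL49 had 14, 27, 36 and 24 counts, 2.84-fold higher in oWAT than in liver by library total (1.49 to 5.69) and 1.41-fold with TMM (0.743 to 2.84). MRPL3, a counterpart of cytosolic RPL3, had 10, 22, 18 and 19 counts, and MRPL37 had 11, 21, 19 and 13. The other 54 mitochondrial members had 61 counts or fewer over the 4 libraries.

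Genes beside the members in the same machines were taken from lists. Cytosolic ribosome genes outside the name rule had counts for 6 of 8 members and were as sparse, led by RACK1, a small-subunit scaffold protein (11, 10, 15 and 21 counts), RPLP0 (9, 8, 12 and 11) and RPSA (8, 6, 16 and 6). Of the mitochondrial ribosome genes outside the rule 4 of 5 had counts, with PTCD3 at 44, 64, 43 and 22 and DAP3 at 18, 6, 15 and 9. None of them was called, and only 1 or 2 in a library had enough counts (0.767% to 25.8% of all genes were called, by pair and direction).

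The factors that work on the ribosome were better counted. Cytosolic translation factors (32 of 38 with counts) summed to 2311, 3203, 3632 and 2958 counts. For every 100 of these counts there were 8.26 cytosolic member counts in liver (7.09 to 9.58), 6.99 in muscle (6.08 to 8.01), 8.40 in oWAT (7.45 to 9.44) and 9.63 in sWAT (8.50 to 10.9). Muscle, the lowest, and sWAT, the highest, did not overlap. The list was led by EIF4G2, a relative of the scaffold eIF4G, with 397, 971, 1245 and 966 counts, and next to EEF1A1 by EEF2, the translocase, with 271, 356, 264 and 253. In muscle over liver 3 of 25 factors with enough counts were called (EEF1A2, EIF3B and EIF4G2), against 23% of all genes. In oWAT over muscle 2 of 23 were called (EEF1A1 and PABPC1), against 11.4% of all genes, and the same 2 of 23 in sWAT over muscle, against 11.2%. EIF4G2 was the 1 factor of 23 called in oWAT over liver, against 25.8% of all genes, and likewise in sWAT over liver, against 24.2%. EEF1A1 was the 1 factor of 22 called in liver over muscle, against 17.7% of all genes. EEF1A2 was called in muscle over oWAT (1 of 25, against 8.3%), and with EIF3B in muscle over sWAT (2 of 25, against 9.23%). The remaining pairs and directions had no call among these factors.

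Mitochondrial translation factors (13 of 15 with counts) summed to 277, 342, 222 and 239 counts, led by LRPPRC, which stabilizes mitochondrial mRNAs (129, 139, 95 and 96), and TUFM, the mitochondrial elongation factor (50, 47, 36 and 32). Among the 5 to 8 genes of a library that had enough counts 0 were called, against 0.767% to 25.8% of all genes by pair and direction. For every 100 counts of these factors there were 132 mitochondrial member counts in liver (112 to 155), 167 in muscle (146 to 191), 225 in oWAT (192 to 264) and 152 in sWAT (129 to 180). The oWAT value lay above the other 3, just clear of the muscle interval.

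Against 24 other mitochondrial proteins of long coding length, enzymes of the citrate cycle, respiratory chain subunits and chaperones among them, the order was different. Their summed counts were 1379, 2606, 1501 and 1208. Member counts per 100 of these were 26.5 in liver (23.5 to 29.7), 21.9 in muscle (19.98 to 23.997), 33.2 in oWAT (29.98 to 36.8) and 30.05 in sWAT (26.6 to 33.8). Muscle therefore had the lowest value, and its interval overlapped that of liver alone. The list was led by ATP5F1A, the alpha subunit of ATP synthase (304, 574, 229 and 155 counts), and OGDH, of the citrate cycle (78, 260, 198 and 163), and 5 of its 21 genes with at least 10 muscle counts were called in muscle over liver (CS, IDH2, OGDH, SUCLA2 and IMMT), near the 23% of all genes. In liver over muscle 1 of 23 was called, HSPD1, against 17.7% of all genes. Called in oWAT over liver were 3 of 21 (CS, OGDH and SUCLA2), against 25.8% of all genes. SUCLA2 was the 1 of 20 called in sWAT over liver (24.2%). Between muscle and oWAT, IDH2 was called in muscle (1 of 21, against 8.3%) and HSPD1 in oWAT (1 of 21, against 11.4%). IDH2, UQCRC1 and ATP5F1A were the 3 of 21 called in muscle over sWAT (9.23%). The other pairs and directions had no call in this list.

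Genes of ribosome assembly were taken as a pair of lists. Cytosolic ribosome biogenesis (30 of 36 with counts) summed to 449, 571, 652 and 534 counts, led by POLR1B, a subunit of RNA polymerase I (62, 55, 61 and 61), with RIOK2 the 1 gene of 21 called in muscle over liver (23% of all genes) and UTP20 the 1 of 21 called in sWAT over muscle (11.2%). Mitochondrial ribosome assembly (19 of 22) summed to 205, 296, 275 and 217 counts, led by the helicase DHX30 (59, 95, 93 and 91) and by FASTKD2 (26, 55, 28 and 23). Among the 6 to 10 genes of a library that had enough counts 0 were called, against 0.767% to 25.8% of all genes by pair and direction.

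Many members were scarcely seen at all. RefSeq's table for the assembly T2T-MFA8v1.1 holds 155 symbols that match the rule, taken by name without a filter on gene type. Of these 106 had counts, 46 of 80 cytosolic (57.5%) and 60 of 75 mitochondrial (80%). Of 17480 protein-coding symbols, leaving out those beginning LOC, 70.1% had counts, with a median of 37 over the 4 libraries. At 10 counts or more over the 4 libraries were 23.8% of the cytosolic symbols, 50.7% of the mitochondrial symbols and 52.7% of all. MRPL53 and MRPS11 had counts but no symbol in that table. The other 49 symbols were not analysed here, and 1214 names given as Ensembl identifiers, which hold 4.43% to 7.12% of counts, could not be paired with symbols and may include some of them.

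No transcript lengths were in the files used, so members were grouped by the size of the protein as generally known, with approximate limits between classes. Of 28 cytosolic names of large proteins 21 had counts (75%), of 30 of middle size 16 (53.3%) and of 22 of small size 9 (40.9%). The counts fell further than the number of names. Large proteins held 847 of the 1005 counts (84.3%), middle ones 83 (8.26%) and small ones 75 (7.46%), and their median members had 15, 3.5 and 3 counts over the 4 libraries. Of the small class RPL22 had 35 counts and RPS20 and RPS27L 14 each, and the remaining 6 had 1 to 4.

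Small cytosolic names with no counts here were RPL35A, RPL36, RPL36A, RPL37, RPL37A, RPL38, RPL39, RPL39L, RPS25, RPS26, RPS27, RPS28 and RPS29. Those of middle size included RPL11, RPL12, RPL17, RPL21, RPL23, RPL23A, RPL26, RPL29, RPS12, RPS13, RPS15, RPS18 and RPS27A, and of large size RPL6, RPL7L1, RPL10L, RPL13A, RPL14, RPS2 and RPS4Y1. Of 12 mitochondrial names of small proteins 9 had counts (75%), with a median of 4, while 53 of 65 larger ones did (81.5%), with a median of 20. The small ones without counts were MRPL33, MRPL36 and MRPL57, and the larger ones MRPL17, MRPL20, MRPL40, MRPL41, MRPL43, MRPL45, MRPL54, MRPL58, MRPS17, MRPS22, MRPS23 and MRPS28. Small proteins held 75 of the 1798 mitochondrial counts (4.17%), led by MRPL53, with 36, MRPS14, with 10, and MRPL34, with 7, while the other 6 had 2 to 5 each. In every library the cytosolic large class held more counts than the middle and small classes together, at 150 of 191, 193 of 224, 255 of 305 and 249 of 285.

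**Figure D5:**
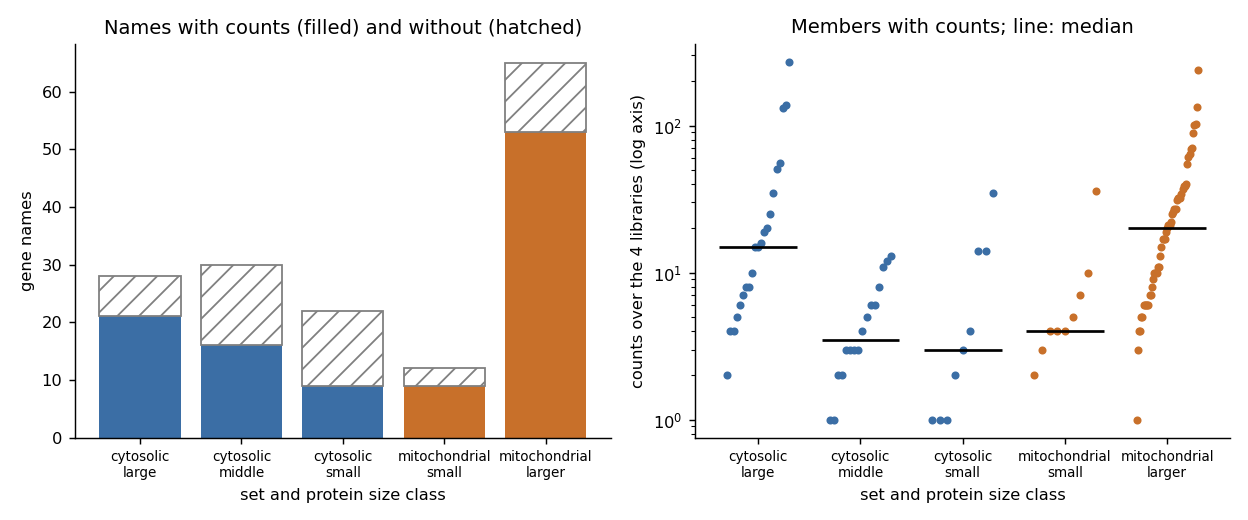
Left, number of gene names with counts (filled) and not analysed here for want of counts under that name (hatched) by set and protein size class; right, counts over the 4 libraries of each member with counts on a log axis, with the class median as a line. The cytosolic large class has a median of 15 and the small class 3, and the mitochondrial larger class 20 against 4.

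A pair of lists outside the ribosome, drawn up after earlier results of these data were known, gave a similar contrast. Of 31 other genes of short mRNAs 18 had counts, with a median of 11.5 over the 4 libraries, and of 22 genes of long mRNAs active in every cell 21 had counts, with a median of 578. Short mRNAs were not uniformly rare. B2M, the light chain of class I histocompatibility antigens, had 125, 90, 425 and 493 counts, and FTL, the ferritin light chain, 97, 30, 80 and 146. The part of transcript length in the low counts of the small members was not tested.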

How the data were processed

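Full-length RNA libraries of 4 tissues, each 1 pool of 5 monkeys, were read on a PacBio Sequel II instrument, per the labels' protocols. Alignment used minimap2 2.24 (per the submitters' processing notes). No source used here gives the read filtering, size selection, gene assignment, strand use, genome build or annotation, so no coordinates are printed. The values deposited by the authors are whole-number counts of each gene, not normalized. A gene named in a file of another tissue but not in a given one was taken as 0. The entry for counts that name no gene (14.3% to 19.5% of each file) was left out of totals.

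From these counts, CPM by library total, shares with exact Clopper-Pearson 95% intervals and folds with exact intervals from the binomial share of both counts were computed. Log2 ratios had 0.5 counts added. The rule for a call (at least 10 counts on the higher side, lower bound above 2) was applied to all 13982 names. It gives no p-value. A trial of the rule on simulated counts changed only genes better counted than most members, so it cannot show how the rule behaves at the counts of most members. Reads carry no molecular identifiers here, so intervals cover counting error only. Alternatives were TMM factors (edgeR 4.0.16: 0.671 for liver, 0.911 for muscle, 1.35 for oWAT, 1.21 for sWAT), DESeq2 1.42.0 size factors (0.722, 0.985, 1.30, 1.11), other denominators, thresholds and member sets.

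Named genes were the 8 most counted members of each set, every called member, every name marking a paralog or variant, up to 4 leading genes of a list, and RefSeq symbols that no file lists. Some items are not reported here. MRPS7, RPS6, RPS24, RPS20, MRPL53, MRPS14, MRPL34, the called genes of a list beyond its leaders and the TMM values of single members were added after their values were seen. The members, the 16 lists and the 2 added lists were chosen with earlier results of these data known. Protein size classes come from general knowledge of the human proteins, with approximate limits, since no protein table was given. They replace the planned bins of protein length. Software was R 4.3.3, Python 3.11.15, NumPy 2.4.6, pandas 2.3.3, SciPy 1.17.1 and matplotlib 3.10.9.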

Additional observations from a re-analysis of the deposited data

How the results depend on the processing

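Of the values recomputed under an alternative, 128 stayed within the interval or 1.5-fold range of the reported one, 63 moved out of it and 8 reversed. The limits are 1 library per tissue, few counts (1005 and 1798 in all), and no transcript lengths. No paired analysis was possible because each tissue has a single library. The alternative with RefSeq proteins of 150 residues or more was not run, as no protein table was given. Causes of the shifts below were not tested, except that a smaller or larger denominator moves a level by construction.

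With all counts of the file as denominator the cytosolic levels were 353, 436, 618 and 619 CPM in liver, muscle, oWAT and sWAT, and the mitochondrial levels 674, 1112, 1012 and 788. A further set of totals left out, from every library, the 29 genes that were among the 10 most abundant of any library. With these the levels were 580 (liver), 641 (muscle) and 876 (sWAT) for cytosolic members and 1108, 1635, 1378 and 1116 for mitochondrial members. Leaving out genes known by identifier alone, a choice made after seeing the data, kept all 8 levels within their intervals.

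Mitochondrial counts per 100 cytosolic counts became 309 in muscle without names that mark a paralog or variant and, in choices made after seeing the data, 302 in muscle without RPL3L, and 289, 321, 324 and 215 in liver, muscle, oWAT and sWAT without the 3 most counted members of each set.

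Folds of the cytosolic sum with TMM and DESeq2 scaling were 1.16 and 1.16 for liver over muscle, 1.14 and 1.13 (both reversed) for liver over oWAT, 1.06 and 1.03 (both reversed) for liver over sWAT, 0.979 and 0.969 for muscle over oWAT and 0.914 and 0.883 for muscle over sWAT. Without RPL3 the last 2 pairs were 0.817 and 0.842, and without the most abundant genes liver over oWAT was 0.689. Folds of the mitochondrial sum were 0.873 and 0.872 for liver over muscle, 1.33 and 1.32 (both reversed) for liver over oWAT, 1.60 and 1.54 for liver over sWAT, 1.53 and 1.51 for muscle over oWAT and 1.83 and 1.77 for muscle over sWAT. Without the most abundant genes liver over oWAT was 0.804 and muscle over oWAT 1.19.

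Mitochondrial median log2 ratios were 0.45 and 0.43 (both reversed) for liver over oWAT, 0.67 and 0.62 for liver over sWAT and 0.74 and 0.73 for muscle over oWAT. No cytosolic median left its interval, which is wide.

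Cytosolic calls between muscle and oWAT and between muscle and sWAT fell from 2 to 1 with TMM and with DESeq2 scaling, and mitochondrial calls between muscle and sWAT rose from 0 to 1. With a lower bound above 1 in place of 2, cytosolic calls were 3 for liver and muscle, 4 for liver and oWAT and 4 for liver and sWAT, and mitochondrial calls were 6 for liver and muscle, 2 for liver and oWAT, 3 for muscle and oWAT, 6 for muscle and sWAT and 1 for oWAT and sWAT. With a minimum of 5 counts no count of calls changed by over 1.5 times.

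At 10 or more counts over the 4 libraries, 46.4% of large, 10% of middle and 13.6% of small cytosolic names were left, and 16.7% of small and 58.5% of larger mitochondrial names.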
